A study of Mus musculus with 21 samples.

Results

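The replication-dependent histone genes of the mouse were examined in C3H/10T1/2 cells whose histone H2B was wild type or carried a single substitution. The members are all genes in the deposited table whose symbol starts with Hist1, Hist2, Hist3 or Hist4 followed by h1, h2a, h2b, h3 or h4, which gave 64 genes of the 24091 listed. They comprise 6 linker histone H1 genes, 17 H2A genes, 18 H2B genes, 10 H3 genes and 13 H4 genes. By symbol, 52 belong to the Hist1 cluster on chromosome 13, 8 to Hist2 on chromosome 3, 3 to Hist3 on chromosome 11 and 1 to Hist4 on chromosome 6, and RefSeq marks 2 of the 64, Hist1h2al and Hist3h2bb-ps, as pseudogenes. C3H/10T1/2 is an established line of mesenchymal progenitor cells from mouse embryo. All groups are this line, untreated, in the same medium, and they differ in the labelled H2B genotype: wild-type H2B (WT), or H2B in which 1 of 3 glutamates (E) is replaced. The replacement is lysine (K) in the groups E71K, E76K and E113K, and glutamine (Q) in the groups E71Q, E76Q and E113Q. There were 3 libraries in each of the 7 groups, described by the submitters as independent biological replicates. The labels neither say how the H2B was introduced nor name separate lines for a genotype, so a difference between lines and an effect of the substitution cannot be told apart, and transcripts of an introduced H2B cannot be told from those of the endogenous H2B genes.

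Histones are the proteins that package DNA: H2A, H2B, H3 and H4 form the core of the nucleosome, and H1 binds the DNA that links nucleosomes. The replication-dependent genes lie in clusters, are transcribed mainly in S phase under the coactivator NPAT, and supply histones for newly made DNA. Their mRNAs typically end not in a poly(A) tail but in a conserved stem-loop that is bound by SLBP, which directs processing, translation and decay. Several of them can also yield polyadenylated mRNAs, which are known from differentiated and non-dividing cells.

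Levels are TPM, transcript abundance scaled to gene length and to a fixed total per library, so levels can be set side by side between genes. TPM holds no read total and the depth of the libraries is unknown, so the precision of low values and of values listed at 0 cannot be given. Whether the RNA was selected for poly(A) tails is not given in the sources used here, and the values cannot tell histone mRNAs with a tail from those without. Of the 64 members, 54 averaged 1 TPM or more across the libraries and were tested (4 H1, 14 H2A, 14 H2B, 9 H3 and 13 H4 genes). The 10 others had means of at most 0.992 TPM and at most 3.10 TPM in any library, and Hist1h2ba was listed at 0 throughout. 17 members averaged 10 TPM or more.

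Libraries of a group did not resemble each other equally. On the first principal component of the differences within groups (24.0% of that variance), E71K replicate 3 stood at 51.2, E76K replicate 3 at 25.8, E113Q replicate 3 at 19.3 and E71Q replicate 1 at -32.5, and these 4 libraries are treated as set apart below. E71K replicate 2, at -38.6, also lay far from its mates, while the WT, E76Q and E113K libraries lay between -1.92 and 2.50. The 4 were chosen with earlier results of these data known, and this axis alone does not select them. Leaving them out keeps 17 libraries, with fewer in E71K, E71Q, E76K and E113Q than in the other groups. E71K replicate 2 is kept. Where a library left out is the one that differs from its mates, a low p without it depends on that choice. The microRNA locus Mir6236 took between 2.19% and 30.6% of the TPM of a library. Mesenchymal markers were expressed in every group (summed TPM of 8 genes between 7335 and 11250.3), although Thy1 was at 0 to 1.24 TPM in the E71K, E71Q and E76Q libraries, and 66.0 in WT, and Eng was below 2.30 TPM in E71K, E71Q, E76K and E76Q, and 20.7 in WT. The immune markers Ptprc and Cd52 summed to at most 0.172 TPM and the endothelial markers to at most 2.21. The epithelial marker Epcam was at 0 in 20 of 21 libraries, and Cdh1 reached 6.64 in WT.

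The stem-loop is shown first because it sets the members apart from other genes and because the members differ in how much annotated sequence follows it. It was searched on the coding strand as 16 bases (GG, 3 pyrimidines, T, a loop of 4 bases of any kind, A, 3 purines and CC) within 100 bases after the stop codon in GENCODE M21 transcripts (mm10). It was found in 42 of the 49 members with annotated 3′ sequence (85.7%) and in 26 of 21117 other genes (0.123%). The commonest form occurred in 22 members, none of them an H4 gene. Below, capitals mark the stem-loop and the 5 bases on each side are in lower case, read 5′ to 3′, for members whose levels are described further on.
Hist1h2ao: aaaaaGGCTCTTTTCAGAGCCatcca
Hist2h2aa2: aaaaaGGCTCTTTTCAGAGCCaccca
Hist1h1c: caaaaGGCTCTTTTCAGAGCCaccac
Hist1h2bg: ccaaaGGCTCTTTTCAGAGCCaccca
Hist1h3a: ccaaaGGCTCTTTTCAGAGCCacaca
Hist2h3c1: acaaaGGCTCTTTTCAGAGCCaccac
Hist1h3c: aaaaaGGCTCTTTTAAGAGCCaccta
Hist1h2bk: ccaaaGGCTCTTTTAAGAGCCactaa
Hist1h4h: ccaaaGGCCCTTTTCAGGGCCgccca
Hist1h4i: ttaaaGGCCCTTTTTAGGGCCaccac
Hist1h4j: ctaaaGGTCCTTTTCAGGACCaccac
The annotated transcript ended 31 bases after the stem-loop in Hist1h2ao, 35 in Hist2h2aa2, 37 in Hist1h3a and 46 in Hist1h4h. It ran on for 155 bases in Hist1h2bg, 330 in Hist1h4i, 840 in Hist1h1c and 1167 in Hist2h3c1. In the annotation, 3 H2B genes have long 3′ sequence with no match in the window, namely Hist1h2bc (742 bases), Hist1h2br (1803 bases) and Hist2h2be (2192 bases).

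Promoters are shown for 3 members that were higher in several mutants and for Hist1h2ao, the most abundant member, which was lower. RefSeq windows of 300 bases (GRCm38.p6, from 250 bases before to 50 after the start) were found for 57 members, in 58 windows. Capitals mark matches on either strand to the CCAAT box (CCAAT, or ATTGG on the other strand), the TATA box (TATAAA or TTTATA) and the octamer (ATTTGCAT or ATGCAAAT), and no 2 matches overlap in these windows.
Hist1h1c (chr13:23738557-23738856, + strand): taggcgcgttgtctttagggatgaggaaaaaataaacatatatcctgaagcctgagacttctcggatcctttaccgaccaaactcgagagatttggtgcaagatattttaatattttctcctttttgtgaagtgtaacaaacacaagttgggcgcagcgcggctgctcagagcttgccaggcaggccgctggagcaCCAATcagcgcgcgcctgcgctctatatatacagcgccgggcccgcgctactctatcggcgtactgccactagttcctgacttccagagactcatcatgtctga
Hist2h2aa2 (chr3:96240325-96240624, - strand): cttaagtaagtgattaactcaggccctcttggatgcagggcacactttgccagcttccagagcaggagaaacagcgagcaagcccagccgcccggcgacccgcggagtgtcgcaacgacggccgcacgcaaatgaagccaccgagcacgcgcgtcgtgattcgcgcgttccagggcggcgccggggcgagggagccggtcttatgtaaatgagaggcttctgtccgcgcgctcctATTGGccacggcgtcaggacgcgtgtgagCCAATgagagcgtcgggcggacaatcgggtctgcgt
Hist1h2bg (chr13:23571150-23571449, + strand): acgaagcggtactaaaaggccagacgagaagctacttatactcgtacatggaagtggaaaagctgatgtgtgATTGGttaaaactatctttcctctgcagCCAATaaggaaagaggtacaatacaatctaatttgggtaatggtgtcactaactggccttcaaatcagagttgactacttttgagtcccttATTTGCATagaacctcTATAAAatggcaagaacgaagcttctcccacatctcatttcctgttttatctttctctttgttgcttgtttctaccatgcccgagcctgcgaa
Hist1h2ao (chr13:21810117-21810416, + strand): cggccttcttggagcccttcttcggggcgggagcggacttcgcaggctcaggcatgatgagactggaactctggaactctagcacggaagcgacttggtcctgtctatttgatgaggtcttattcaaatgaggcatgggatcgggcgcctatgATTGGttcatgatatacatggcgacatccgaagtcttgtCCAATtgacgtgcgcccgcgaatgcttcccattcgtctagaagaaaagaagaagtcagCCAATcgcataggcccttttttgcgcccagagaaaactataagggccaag
The CCAAT box was present in 84.48% of the members' windows and in 37.41% of the 32851 windows in the table. It was in 100% of the H1, H2A, H2B and H3 windows and in 25% of the H4 windows. TATAAA was in 56.9% of the members' windows against 13.62% of all windows, and the octamer in 24.14% against 1.735%. The octamer matches were in 7 H2A and 7 H2B windows, as ATTTGCAT in the H2B windows and as its reverse complement in the H2A windows. Windows of neighbouring H2A and H2B genes read in opposite directions can overlap, and some matches are the same site counted in both. This holds for Hist1h2ae with Hist1h2bg, Hist1h2ah with Hist1h2bk, and Hist1h2aa with Hist1h2ba. The windows are thus not all separate, and the share with an octamer counts such sites more than once. A match of letters is a description, not a site of binding.

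The summed level of all 64 genes was 1664 ± 68.0 TPM in WT (SD, n = 3 libraries, as for all ± values of TPM here), and the makeup of that sum differed between WT and every mutant. In the 3 WT libraries H2A genes gave 54.4% of it, H3 genes 27.4%, H2B genes 8.60%, H4 genes 6.64% and H1 genes 2.95%. In the mutants the H3 share was between 3.62% (E76K) and 5.59% (E113K), and the H2B share between 18.9% (E113K) and 31.7% (E71Q). The H3 sum was 446 to 467 TPM in the WT libraries and 38.5 to 109.7 in the 18 mutant libraries. The H2B sum was 137 to 148 in WT and 175 to 607 in the mutant libraries. For both classes WT did not overlap with any mutant library. The H1 sum was 48.0 to 50.5 TPM in WT, 169 to 177 in E76Q and 132 to 141 in E113K. In E71Q it was 247 and 249 in 2 libraries but 77 in replicate 1. The H4 sum was lowest in E113K, at 53.8 to 61.5 TPM against 102 to 124 in WT. The total was 1606 to 1739 TPM in the WT libraries. It was 1148 to 1379 in E71K, 1013 to 1168 in E76K, 1519 to 1550 in E76Q, 963 to 1038 in E113K and 1248 to 1481 in E113Q, and all libraries of these 5 groups were below all WT libraries. In E71Q it was 987, 1716 and 1811 and overlapped with WT. Mir6236 took 30.6% of the TPM of E71K replicate 2 and 9.02% to 15.0% in E76Q, against 3.77% to 7.26% in WT. With Mir6236 left out, the totals of E71K and E76Q were not wholly below WT. The sum without Hist1h2ao, Hist1h3a and Hist1h3h, left out with their values known, was 497 to 539 TPM in WT. That sum was at least 594 TPM in every mutant library. These sums are given as a description, and of the class sums only that of the 13 H4 genes, which encode the same protein, was also tested, as a sum of copies further on. In bulk RNA, fewer cells in S phase and less histone RNA per cell cannot be told apart.

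**Figure D1:**
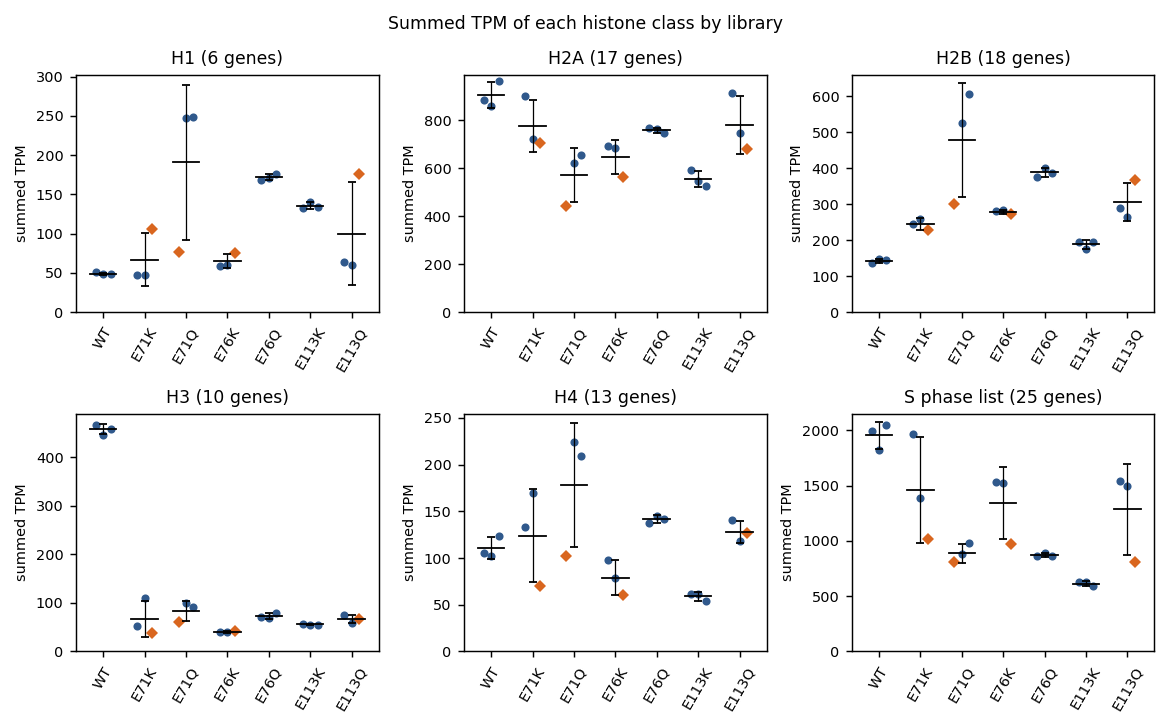
Summed TPM of each histone class and of 25 S phase genes in every library, by H2B group (x axis). Points are libraries, orange diamonds the 4 libraries set apart, the horizontal bar is the mean and the vertical bar the SD over 3 libraries. The H3 sum of the WT libraries, at 446 to 467 TPM, lies above all mutant libraries, and the S phase sum is lowest in E113K.

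The groups differed in a smaller share of the tested histone genes than of all tested genes. By limma's F test over the 7 groups, 27 of the 54 tested members passed (50%), beside 77.1% of all genes tested. By class these were 3 of 4 H1, 7 of 14 H2A, 8 of 14 H2B, 3 of 9 H3 and 6 of 13 H4 genes. All comparisons with WT below share the same 3 WT libraries and are therefore given side by side, not as repeats of each other.

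Against WT, histone genes moved in both directions in every mutant, with the 2 H3 genes Hist1h3a and Hist1h3h lower and the H2B gene Hist2h2be higher in all 6. In E71K, 4 of 54 members rose (12.5% of all tested genes rose) and 3 fell (14.2% of all). In E71Q, 10 rose (20.7% of all) and 6 fell (23.5% of all). In E76K, 2 rose (23.5% of all) and 8 fell (9.67% of all). In E76Q, 10 rose (22% of all) and 5 fell (22.4% of all). In E113K, 7 rose (30.3% of all) and 14 fell (20.7% of all). In E113Q, 3 rose (17.9% of all) and 2 fell (12.7% of all). The share of members that rose was below the share of all genes in each of the 6 mutants, and the share that fell was above it in E76K and E113K. The median log2 fold change of the members was -0.66 in E113K and -0.31 in E76K, where the median of all tested genes was 0.13 and 0.16 (0.01 in both after median-ratio rescaling of the libraries). In the other 4 mutants it lay between -0.08 and 0.19. When the 4 libraries set apart were left out, 12 members rose and 6 fell in E71K, 11 fell in E71Q, 4 rose in E76K and 10 rose in E113Q, and the other counts against WT moved by less than 1.5 times. Shares of all tested genes were not taken for that fit, here or in the comparisons below. A gain in calls over all genes therefore cannot be told from a gain in the members.

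**Figure D2:**
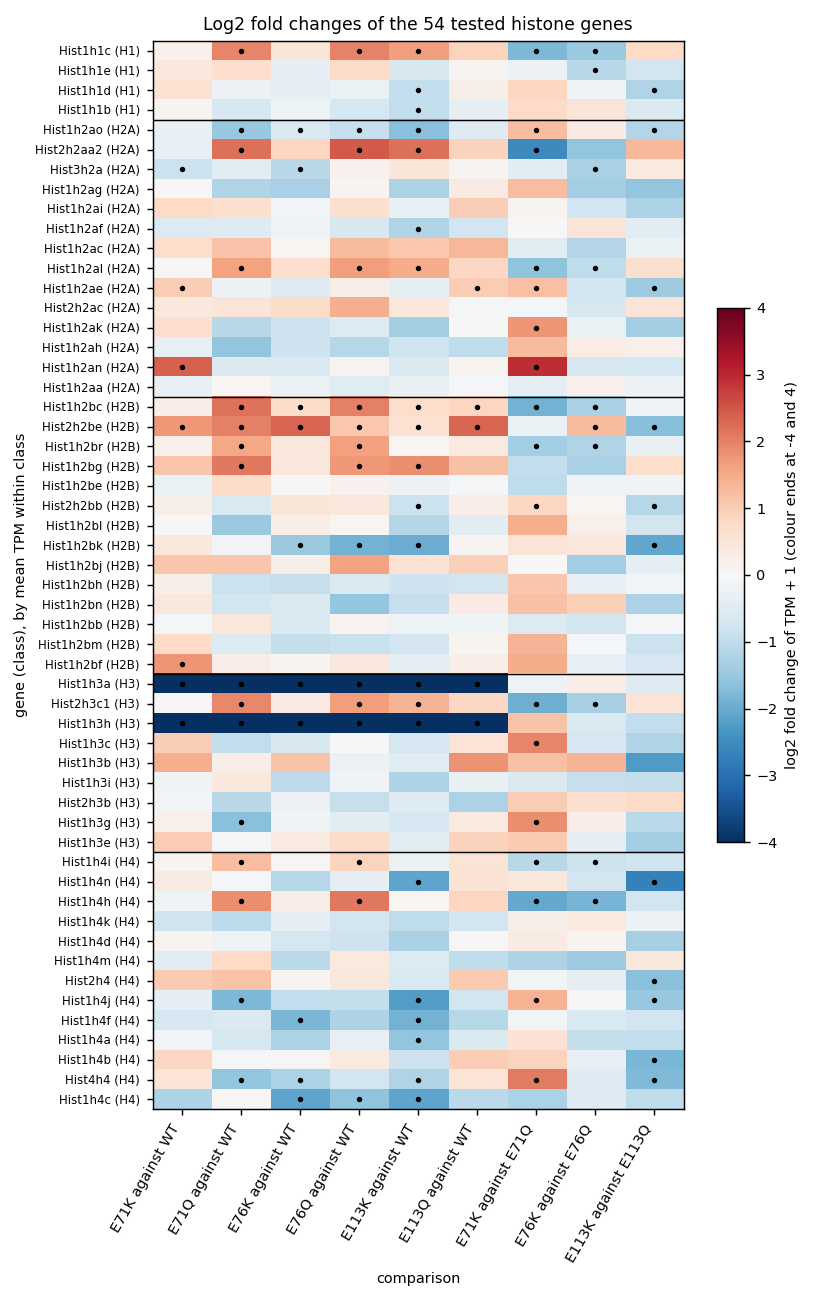
Log2 fold changes of TPM + 1 for the 54 tested histone genes (rows, by class and mean TPM) in 9 comparisons (columns), with the colour scale ending at -4 and 4. Black dots mark an adjusted p below 0.05 by limma. Hist1h3a and Hist1h3h are dark blue in all 6 mutants against WT, and Hist2h2be is red in all 6.

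The H3 genes that supplied most H3 transcript in WT were nearly absent from the mutants. Hist1h3a (chr 13, 23761885 to 23762386) stood at 274, 258 and 267 TPM in the WT libraries. It was at 1.5, 0.975 and 0 in E71K, at 0, 0.727 and 3.37 in E71Q, at 0, 2.11 and 1.90 in E76K, at 0, 1.24 and 1.24 in E76Q, at 1.26, 0.509 and 0 in E113K and at 0.813, 1.62 and 1.03 in E113Q. No mutant library reached 3.5 TPM, and the gene fell in all 6 mutants, with log2 fold changes of TPM + 1 from -6.97 (E113Q) to -7.47 (E113K) (SE 0.52, limma adjusted p of 1.17e-08 or less). Hist1h3h, which encodes the same H3 protein from the other end of the Hist1 cluster (chr 13, 21717628 to 21718115), stood at 165, 146 and 155 TPM in WT. It was at 6.66, 6.52 and 2.78 in E71K, at 1.39, 0.829 and 3.61 in E71Q, at 1.17, 0 and 0 in E76K, at 2.37, 1.28 and 0 in E76Q, at 3.19, 1.5 and 0 in E113K and at 5.42, 4.96 and 1.06 in E113Q. WT and mutant libraries were again far apart, and Hist1h3h fell with log2 fold changes from -4.70 (E71K) to -6.92 (E76K) (SE 0.56, limma adjusted p of 4.27e-06 or less). Both falls were called whichever library was left out, and neither gene was called between lysine and glutamine at any residue (limma adjusted p 0.145 or more). The lysine-minus-glutamine difference of Hist1h3h differed between E71 and E113 (by 2.12 ± 0.79, limma adjusted p = 0.0494, close to the threshold). The gene was at 0 to 6.66 TPM in the libraries of that term, so its size depends on the pseudocount.

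Histone genes beside these 2 had other levels. Hist1h4a, 635 bases from Hist1h3a, averaged 2.45 TPM over the 21 libraries, and Hist1h1a, 1281 bases to the other side, averaged 0.401. Hist1h2ai, 768 bases from Hist1h3h, averaged 11.6 TPM and was not called in any mutant against WT with all libraries, but was called higher in E113Q without the 4 set apart. Without Hist1h3a and Hist1h3h the H3 sum was 34.9 ± 6.80 TPM in WT, and 38.4 ± 1.65 (E76K) to 80.5 ± 19.3 (E71Q) in the mutants.

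Hist2h3c1, an H3 gene of the Hist2 cluster, went the other way. It was at 15.2, 19.0 and 14.1 TPM in WT, at 10.7, 14.3 and 25.3 in E71K, at 17.7, 17.4 and 28.8 in E76K and at 25.6, 19.1 and 50.9 in E113Q. It was at 40.8, 82.2 and 75.7 in E71Q, at 53.6, 53.0 and 52.9 in E76Q and at 47.3, 43.3 and 38.7 in E113K, above all WT libraries in these 3 groups. It rose by 1.92 ± 0.33 in E71Q (model SE, as for all ± values on the log2 scale, limma adjusted p = 0.000178), by 1.67 ± 0.33 in E76Q (0.000644) and by 1.37 ± 0.33 in E113K (0.0025). In the set-apart replicate 3 of E71K, E76K and E113Q it was higher than in both other libraries of its group. In E113Q it did not pass with all libraries and was called without the 4 set apart (log2 0.45, limma adjusted p = 0.0258). Hist1h3c, at 1.14 to 5.30 TPM in WT, was not called against WT with all libraries. Without the 4 set apart it was higher in E71K (log2 1.69, limma adjusted p = 0.0234) and lower in E71Q (-1.67, 0.0168). Hist1h3g fell in E71Q (log2 -1.69 ± 0.66, limma adjusted p = 0.0471).

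Among H2A genes the most abundant member fell and a Hist2 gene rose. Hist1h2ao was at 711, 699 and 778 TPM in WT and was the most abundant histone gene over the 21 libraries (mean 459). It was at 739, 575 and 497 in E71K, at 561, 553 and 344 in E76K and at 679, 549 and 359 in E113Q. It was at 241, 238 and 289 in E71Q, at 373, 396 and 374 in E76Q and at 242, 224 and 215 in E113K. The latter 3 groups lay wholly below WT, and so did E76K and E113Q, while E71K overlapped with WT. The fall was -1.51 ± 0.21 in E71Q (limma adjusted p = 1.63e-05), -0.93 ± 0.21 in E76Q (0.00156) and -1.68 ± 0.21 in E113K (4.78e-06). In E76K it was -0.62 ± 0.21 (0.0289), which left the threshold when 1 of 4 libraries was left out, with 0.178 without E76K replicate 3 and 0.0559 to 0.0906 without each WT library. It was also lost with only the 6 libraries compared in the fit (0.0545). Hist1h2ao did not pass in E71K (-0.29 ± 0.21, 0.334) or E113Q (-0.51 ± 0.21, 0.0705). In E113Q it was called after median-ratio rescaling (-0.58, limma adjusted p = 0.0404) and not without the 4 libraries set apart (-0.26, 0.103).

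Hist2h2aa2 was at 41.1, 38.4 and 38.5 TPM in WT. It was at 104, 243 and 245 in E71Q, at 222, 207 and 227 in E76Q and at 211, 186 and 165 in E113K, all above WT. It rose by 2.20 ± 0.60 in E71Q (limma adjusted p = 0.00653), by 2.44 ± 0.60 in E76Q (0.00321) and by 2.22 ± 0.60 in E113K (0.00515). In the other mutants 1 library differed from its mates: E71K was at 14.3, 18.1 and 110.3, E76K at 54.4, 48.7 and 139.7 and E113Q at 48.7, 55.2 and 158. In the fit without the 4 libraries set apart the gene fell in E71K (log2 -1.24, limma adjusted p = 1.31e-06) and rose in E76K (0.38, 0.0148) and E113Q (0.39, 0.0127). That fit leaves out the library that differed in each of these groups, so these calls depend on the choice of libraries.

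Hist3h2a, an H2A gene on chromosome 11, was at 61.5 to 76.5 TPM in WT, 27.4 to 56.1 in E71K and 28.3 to 34.5 in E76K, with no overlap. It fell in E71K (log2 -0.87 ± 0.21, limma adjusted p = 0.0043; 0.111 with only the 6 libraries compared in the fit) and E76K (-1.12 ± 0.21, 0.000524). With all libraries it did not pass in E71Q (-0.45, 0.0923) or in E113K, where the libraries were at 94.0 to 98.6 TPM, above all WT libraries (0.49, 0.062). In E71Q it was called lower after median-ratio rescaling (limma adjusted p = 0.0354) and without the 4 libraries set apart (-0.29, 0.0305). In E113K it was called higher without those 4 libraries (0.00058), with only the 6 libraries compared (0.00264) and without Mir6236 (0.0357). Hist1h2ag, at 17 to 25.8 TPM in WT, varied within groups (0 to 38.7 in E71Q, 6.78 to 51.8 in E71K) and was not called with all libraries. With only the 6 libraries compared in the fit it was lower in E113K than in WT (log2 -1.26, limma adjusted p = 0.00251) and than in E113Q (-1.59, 0.032). Hist1h2an was at 2.25, 0 and 0 in WT and at 6.64, 10.9 and 4.07 in E71K, and it rose there (log2 2.38 ± 0.59, limma adjusted p = 0.00546). It was listed at 0 in all libraries of E71Q, E76K and E113K. Hist1h2ae, at 2.33 to 4.45 TPM in WT, was at 4.68 to 11.3 in E71K and 5.80 to 8.78 in E113Q and rose in both (limma adjusted p = 0.0431 and 0.0319). Those 2 calls were lost in 4 of 6 fits with 1 library left out, with adjusted p up to 0.188 without E71K replicate 1 and up to 0.119 without WT replicate 1. The pseudogene Hist1h2al, on chromosome 13 away from the cluster, rose in E71Q (log2 1.61), E76Q (1.68) and E113K (1.48).

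Among H2B genes Hist2h2be rose in every mutant. This gene, in the Hist2 cluster (chr 3, 96221072 to 96223738), was at 22.7, 21.8 and 23.2 TPM in WT. It was at 108, 73.1 and 60.4 in E71K, at 76, 104 and 109 in E71Q, at 129, 126 and 99.7 in E76K, at 44.4, 49.2 and 52.8 in E76Q, at 36.2, 34.9 and 34.5 in E113K and at 107, 99.1 and 154 in E113Q. All 18 mutant libraries were above all WT libraries. The rise was largest in E76K and E113Q (log2 2.33 ± 0.19 in each, limma adjusted p = 5.1e-08 and 5.2e-08), then E71Q (2.03, 2.28e-07), E71K (1.75, 1.77e-06), E76Q (1.08, 0.000276) and E113K (0.62, 0.0136). It was called in each mutant whichever library was left out, but in E113K it did not pass after median-ratio rescaling (log2 0.49, limma adjusted p = 0.0549). Hist2h2ac, 191 bases from Hist2h2be, averaged 2.24 TPM and was not called in any mutant against WT with all libraries, but was called higher in E76Q without the 4 set apart.

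Hist1h2bc, the most abundant H2B gene over all libraries (mean 98 TPM), was at 41.5, 42.4 and 41.2 TPM in WT. It was at 116, 236 and 249 in E71Q and at 187, 186 and 149 in E76Q, and rose by 2.16 ± 0.27 (limma adjusted p = 5.07e-06) and 2.03 ± 0.27 (1.15e-05). It was at 67.3, 65.2 and 78.6 in E76K, at 79.4, 63.6 and 62.9 in E113K and at 68.3, 63.6 and 104 in E113Q, above all WT libraries. These 3 smaller rises (log2 0.74, 0.70 and 0.87, limma adjusted p = 0.042, 0.037 and 0.02) depended on single libraries: in E76K and E113K the call was lost without any 1 of the 6 libraries (0.058 to 0.134), and in E113Q without E113Q replicate 3 (0.105) or WT replicate 1 or 3 (0.0542 and 0.0565). In E71K it was at 48.1, 36.5 and 73.7 and did not pass (0.27, 0.495).

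Hist1h2br was at 28.6 to 33.5 TPM in WT, at 49.2, 109.7 and 151 in E71Q and at 88.4, 104 and 107 in E76Q, and rose there by 1.55 ± 0.32 (limma adjusted p = 0.000847) and 1.64 ± 0.32 (0.000533). It did not pass in the other 4 mutants (adjusted p 0.319 or more), although with only the 6 libraries compared in the fit it was called in E76K (0.42, 0.0184). Hist1h2bg was at 8.22, 3.77 and 7.74 TPM in WT, at 12.6, 42.1 and 50.3 in E71Q, at 16.2, 21.8 and 36.1 in E76Q and at 24.2, 23.3 and 29.4 in E113K. It rose by 2.09 ± 0.54 in E71Q (limma adjusted p = 0.00485), by 1.75 ± 0.54 in E76Q (0.0151) and by 1.87 ± 0.54 in E113K (0.00864). In E76Q the call was lost without WT replicate 2 (0.07) or E76Q replicate 3 (0.0731). Hist1h2bk went down: it was at 3.11 to 5.32 TPM in WT, 0 to 1.66 in E76K, 0 to 1.84 in E76Q and 0 to 1.42 in E113K. It fell in those 3 groups (log2 -1.49, -1.90 and -1.97, limma adjusted p = 0.0238, 0.00397 and 0.00249). In E76K that call was lost without E76K replicate 1 (0.125) or WT replicate 2 or 3 (0.0659 and 0.0814). Hist1h2bf, at 0, 1.23 and 0 TPM in WT, was at 2.96, 5.08 and 2.73 in E71K and rose there (log2 1.78 ± 0.54, 0.0204), but not without E71K replicate 2 (0.0609) or WT replicate 1 or 3 (0.0822 and 0.0818).

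**Figure D3:**
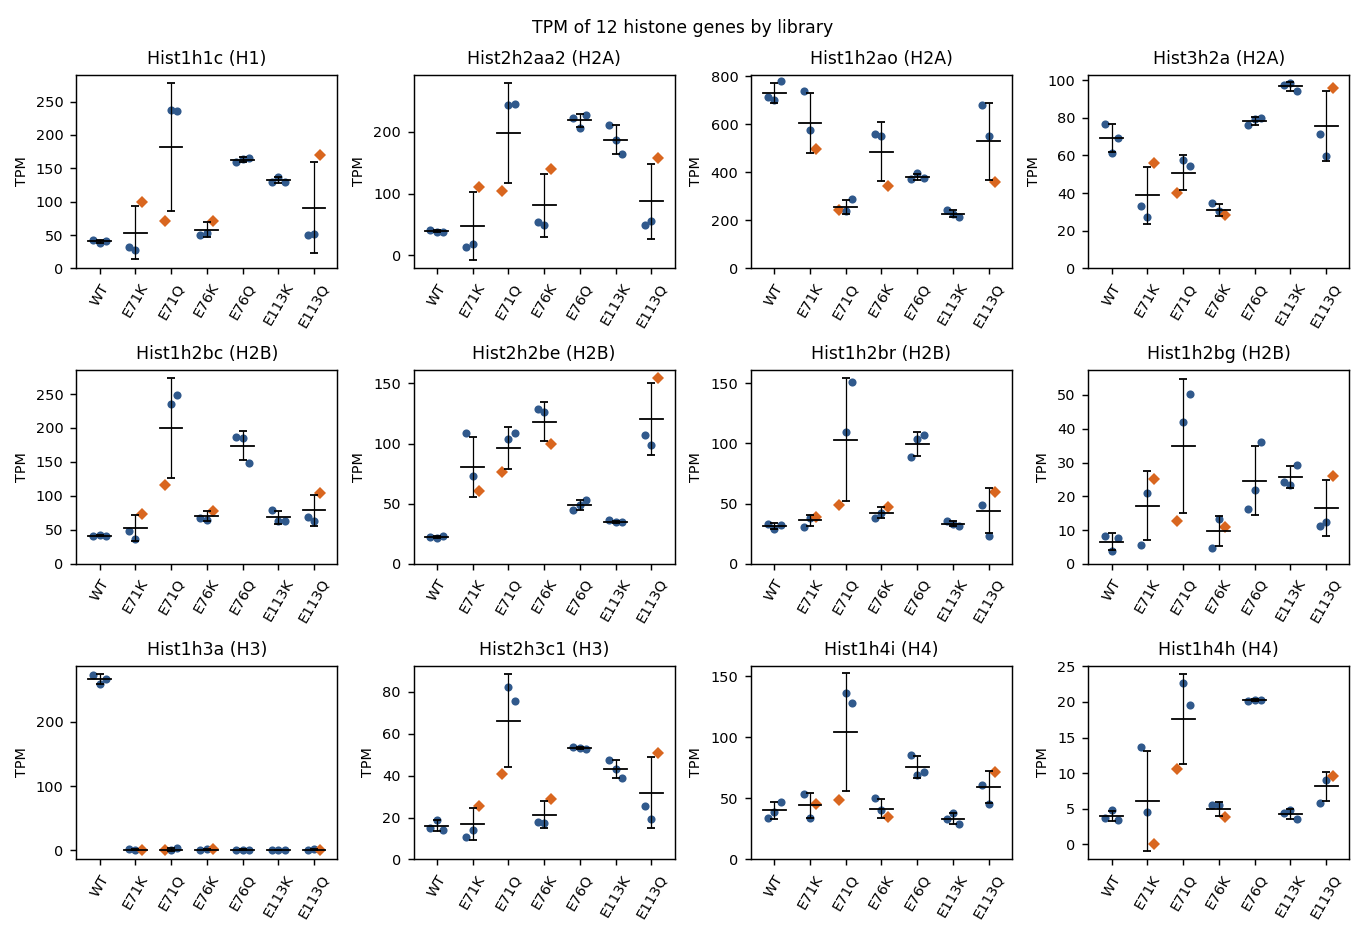
TPM of 12 histone genes in each library (y axis, each panel with its own scale from 0 or just below) by H2B group (x axis). Points are libraries, orange diamonds the 4 libraries set apart, the horizontal bar is the mean and the vertical bar the SD over 3 libraries. Hist1h3a is at 258 to 274 TPM in WT and near 0 in all mutants, whereas Hist2h2be is higher in all 18 mutant libraries than in WT.

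Of the H1 genes, Hist1h1c carried nearly the whole class. It was at 42.7, 38.5 and 40.4 TPM in WT. It was at 71.7, 238 and 236 in E71Q, at 159, 164 and 166 in E76Q and at 129.7, 138 and 129 in E113K, all above WT. It rose by 1.95 ± 0.49 in E71Q (limma adjusted p = 0.00371), by 1.98 ± 0.49 in E76Q (0.00331) and by 1.68 ± 0.49 in E113K (0.00819), and these calls held with each library left out. It was at 32.6, 28.3 and 100.1 in E71K, at 49.6, 53.2 and 71.4 in E76K and at 50.5, 51.8 and 169 in E113Q, where the set-apart library was the highest each time. With all libraries it did not pass in these 3 groups (adjusted p 0.172 or more). Leaving out the 4 libraries set apart, it fell in E71K (log2 -0.40, limma adjusted p = 0.000509) and rose in E76K (0.34, 0.00186) and E113Q (0.33, 0.00207). The highest library of each of these groups is then absent, so these calls too depend on the choice of libraries.

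The other H1 genes were low. Hist1h1e was at 2.35 to 3.35 TPM in WT and 1.10 to 8.80 elsewhere and was not called against WT with all libraries. Without the 4 libraries set apart it was higher in E71K (log2 0.85, limma adjusted p = 0.0291), E71Q (1.13, 0.00406) and E76Q (0.77, 0.0184) and lower in E113K (-0.66, 0.0371). Hist1h1d, at 1.82 to 3.48 TPM in WT, and Hist1h1b, at 1.59 to 2.84, were at 0.511 to 1.11 and 0.502 to 0.633 in E113K and fell there (log2 -0.97 in each, limma adjusted p = 0.0466 and 0.0328). Both calls were lost in 5 of 6 fits with 1 library left out (Hist1h1d up to 0.142 without E113K replicate 1, Hist1h1b up to 0.116 without WT replicate 2). Without the 4 libraries set apart Hist1h1d was also higher in E71K (0.88, 0.0216) and Hist1h1b lower in E71Q (-0.76, 0.0241) and E76Q (-0.72, 0.0182).

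Of the H4 genes, 6 of 13 fell in E113K (Hist1h4j, Hist1h4c, Hist1h4n, Hist1h4f, Hist1h4a and Hist4h4) and none was called higher by limma, beside 20.7% of all tested genes that fell there and 30.3% that rose. At an unadjusted p under 0.05, 8 were lower and 0 higher. Hist1h4i, the most abundant H4 gene, was at 34.1, 39.3 and 47.3 TPM in WT, at 48.8, 136 and 128 in E71Q and at 85.8, 69.0 and 71.8 in E76Q. It rose by 1.23 ± 0.30 in E71Q (limma adjusted p = 0.00287, and 0.062 with only the 6 libraries compared in the fit) and by 0.90 ± 0.30 in E76Q (0.0207), the latter not without WT replicate 1 (0.0778), WT replicate 2 (0.051) or E76Q replicate 1 (0.0725). It was at 33.2, 37.7 and 28.8 in E113K and did not pass there (-0.26, 0.479). Hist1h4h was at 3.74, 4.77 and 3.42 TPM in WT, at 10.6, 22.6 and 19.6 in E71Q and at 20.1, 20.3 and 20.3 in E76Q, with no overlap. It rose by 1.85 ± 0.59 (limma adjusted p = 0.0175) and 2.10 ± 0.59 (0.00813), the former not without E71Q replicate 2 (0.0688), E71Q replicate 3 (0.0545) or WT replicate 3 (0.0541). With a pseudocount of 0.1 neither call held (0.125 and 0.0827). In E71K Hist1h4h was at 13.7, 4.59 and 0, so that its log2 value was -0.19 with all libraries and 0.87 (limma adjusted p = 0.0323) without the 4 libraries set apart.

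Hist1h4j was at 5.62, 7.03 and 8.53 TPM in WT, at 0.910, 2.14 and 1.05 in E71Q and at 1.47, 0 and 0.970 in E113K. It fell in E71Q (log2 -1.79 ± 0.40, limma adjusted p = 0.00167) and E113K (-2.23 ± 0.40, 0.00021). Hist1h4n was at 9.44, 15.0 and 14.9 TPM in WT and at 5.23, 4.29 and 0 in E113K, and fell there (-2.11 ± 0.68, 0.0153), but not without E113K replicate 3 (-1.27, 0.115). Hist1h4c was at 2.45, 2.07 and 6.64 TPM in WT, was listed at 0 in all libraries of E76K and E113K and was called lower in both (0.00474 and 0.00269). In E76Q it was at 0, 0 and 1.91 and was called lower (0.0187), but not without E76Q replicate 1 (0.0789), E76Q replicate 2 (0.0802) or WT replicate 3 (0.104). Hist4h4, at 1.77 to 3.25 TPM in WT, was at 0 to 0.602 in E71Q and fell there (-1.58 ± 0.45, 0.00858). It also fell in E76K (-1.26) and E113K (-1.20), and each of those calls was lost in 4 of 6 fits with 1 library left out (up to 0.161 without E76K replicate 3 and up to 0.148 without E113K replicate 3). Hist1h4k, at 10.4 to 16.4 TPM in WT, was not called with all libraries. It was lower in E113K without the 4 libraries set apart (-1.0, 0.0198) and in E76Q with only the 6 libraries compared in the fit (-0.75, 0.049).

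The annotated 3′ sequence of the members was set beside these changes, with a length of 200 bases chosen after the values were seen. Of the 10 members that rose in E71Q, 7 have at least 200 annotated bases after the stop codon (Hist1h1c, Hist1h2bc, Hist1h2bg, Hist1h2br, Hist1h4i, Hist2h2be and Hist2h3c1). Of the 6 that fell, 2 have (Hist1h4j and Hist4h4), and of the other 38 tested members 10 have, among them Hist1h1d, Hist1h2ac and Hist3h2a. Members with 0 annotated bases after the stop codon, such as Hist1h3h, Hist1h2ai and Hist1h4k, count as shorter, although their 3′ end is simply not annotated. Hist1h2bg lies at 200 bases and Hist1h2ae at 199, and the other mutants were not described in this way. No test was made of this description.

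Lysine and glutamine at the same residue gave different levels of several histone genes. In E71K against E71Q, 9 of 54 members were higher (12.8% of all tested genes) and 8 lower (12.3% of all). Hist1h2an, which was listed at 0 in all E71Q libraries, was higher in E71K (limma adjusted p = 0.00185), and so were Hist4h4 (log2 2.08 ± 0.45, 0.00307) and Hist1h2ao (1.22 ± 0.21, 0.000484). Hist2h2aa2 (-2.54 ± 0.60, 0.00554), Hist1h4h (-2.03 ± 0.59, 0.0187), Hist2h3c1 (-1.94 ± 0.33, 0.000523), Hist1h2bc (-1.88 ± 0.27, 8.13e-05) and Hist1h2br (-1.35 ± 0.32, 0.00545) were lower. The comparison holds 2 of the 4 libraries set apart. Without those 4 libraries 18 members were higher and 10 lower, including all 17 called with every library. With only the 6 libraries of the 2 groups in the fit, limma called 3 higher and 0 lower, where 12 and 8 had an unadjusted p under 0.05. Of the 13 named calls here, 6 were lost with 1 library left out, namely those of Hist1h1c, Hist1h2ae, Hist1h3c, Hist1h4h, Hist1h4i and Hist1h4j. The largest adjusted p among them was 0.17, for Hist1h3c without E71Q replicate 3.

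In E76K against E76Q, 1 of 54 members was higher (23.4% of all tested genes) and 9 lower (8.46% of all). The higher one was Hist2h2be (log2 1.25 ± 0.19, limma adjusted p = 8.78e-05), with 99.7 to 129 TPM in E76K and 44.4 to 52.8 in E76Q. Hist1h4h (-1.85 ± 0.59, 0.0238), Hist1h1c (-1.49 ± 0.49, 0.0266), Hist2h3c1 (-1.32 ± 0.33, 0.00574), Hist3h2a (-1.31 ± 0.21, 0.000128) and Hist1h2bc (-1.29 ± 0.27, 0.00127) were lower, and the libraries of the groups did not overlap in any of these 5 genes. Of the 9 named calls, those of Hist1h1c, Hist1h1e, Hist1h4h and Hist1h4i were lost with 1 library left out (adjusted p up to 0.119, for Hist1h4i without E76Q replicate 1). Without the 4 libraries set apart, 4 members were higher and 12 lower, and Hist2h2aa2 was among the lower ones (-2.06, 8.45e-09), where it had not passed with all libraries (-1.59, 0.0506).

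In E113K against E113Q, limma called 0 of 54 members higher (14.6% of all tested genes) and 11 lower (13.3% of all). At an unadjusted p under 0.05, 1 was higher and 17 were lower. The largest differences were Hist1h4n (log2 -2.70 ± 0.68, limma adjusted p = 0.00673) and Hist1h2bk (-2.08 ± 0.48, 0.00372). Hist2h2be was lower as well (-1.72 ± 0.19, 6.3e-06), as were Hist4h4 (-1.76 ± 0.45, 0.0073) and Hist1h2ao (-1.17 ± 0.21, 0.000509). Of the 8 named calls, those of Hist1h4j and Hist1h1d were lost with 1 library left out (adjusted p up to 0.0652 and 0.133). Without the 4 libraries set apart 23 members were lower and 5 higher, the latter being Hist2h2aa2 (1.83, 4.29e-08), Hist1h1c (1.35, 1.14e-08), Hist2h3c1 (0.93, 0.000219), Hist3h2a (0.56, 0.000852) and the pseudogene Hist1h2al. E113Q replicate 3 had 169 TPM of Hist1h1c, above the 129 to 138 of the E113K libraries, and its mates had 50.5 and 51.8.

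Whether the lysine-minus-glutamine difference itself differed between residues was tested with interaction terms in the same fit. Between E71 and E76, 5 of 54 members had a more positive difference at E71 (6.3% of all tested genes) and 1 a more negative one (15.4% of all). Between E71 and E113, 19 were more positive at E71 (16.1% of all) and 6 more negative (16.6% of all). Between E76 and E113, 4 were more positive at E76 (19.8% of all) and 6 more negative (9.65% of all). Hist2h2be differed in all 3 of these terms: its lysine-minus-glutamine difference was -0.28 at E71, 1.25 at E76 and -1.72 at E113.

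Near-identical genes can share reads, so copies that encode the same protein were also summed. By translated coding sequence the members hold 6 such groups: 8 H2A genes, 4 and 3 H2B genes, 5 and 4 H3 genes and all 13 H4 genes. Within a group the coding sequences were 85.4% to 100% identical, and only 1 pair of genes, both H4, had identical coding sequences. The sum of the 4 H3 copies with Hist1h3a and Hist1h3h (with Hist1h3g and Hist1h3i) was 429 ± 17 TPM in WT and 2.40 to 27.0 in the mutant libraries. It fell with log2 fold changes from -4.91 (E113Q) to -6.25 (E113K) (SE 0.60, limma adjusted p of 6.45e-06 or less). The other H3 sum (Hist1h3b, Hist1h3c, Hist1h3e, Hist1h3f and Hist2h3b) was 11.7 ± 4.79 TPM in WT and did not pass in any mutant against WT.

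The sum of the 8 H2A copies around Hist1h2ao was 772 ± 48.2 TPM in WT, 301 ± 19.4 in E71Q, 437 ± 15.1 in E76Q and 253 ± 11.7 in E113K. It fell in E71Q (log2 -1.36, SE 0.21, limma adjusted p = 5.46e-05), E76Q (-0.82, 0.00424), E113K (-1.61, 8.49e-06) and E76K (-0.63, 0.0281), and did not pass in E71K (0.453) or E113Q (0.135). The sum of Hist1h2bc, Hist1h2be and Hist1h2bg was 63.4 ± 7.11 TPM in WT, 258 ± 93.7 in E71Q and 214 ± 11.1 in E76Q. It rose by 1.94 in E71Q (4.09e-06), by 1.75 in E76Q (1.48e-05), by 0.73 in E113K (0.0151) and by 0.77 in E113Q (0.0191), with an SE of 0.24. The sum of Hist1h2bf, Hist1h2bj, Hist1h2bl and Hist1h2bn was 7.29 ± 2.39 TPM in WT and did not pass in any comparison. The sum of the 13 H4 genes was 110.4 ± 11.7 TPM in WT and 58.8 ± 4.40 in E113K, where it fell (log2 -0.89, SE 0.28, limma adjusted p = 0.014), and did not pass in the 5 other mutants (adjusted p 0.0882 or more). It was also lower in E113K than in E113Q (-1.11, 0.00733) and in E76K than in E76Q (-0.86, 0.027).

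With copies summed, 26 features were tested in place of 54 genes. Of these, 1 rose in E71K (12.5% of all features tested) and 2 fell (14.2%), and 7 rose in E71Q (20.7%) and 2 fell (23.5%). In E76K 1 rose (23.5%) and 4 fell (9.66%), and in E76Q 7 rose (22%) and 3 fell (22.4%). In E113K 6 rose (30.4%) and 8 fell (20.7%), and in E113Q 2 rose (18%) and 1 fell (12.7%). Between lysine and glutamine, 4 were higher (12.8%) and 6 lower (12.3%) at E71, 1 higher (23.5%) and 8 lower (8.51%) at E76, and 0 higher by limma (14.7%) and 6 lower (13.3%) at E113, where 1 and 8 had an unadjusted p under 0.05.

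Some of the genes that drive histone transcription and 3′ processing were lower, and their share was not above that of all tested genes in every mutant. The list holds 23 genes, of which 22 were tested. By limma 2 fell in E71K, or 9.09% (14.2% of all tested genes fell), 8 in E71Q, or 36.4% (23.5% of all), 5 in E76K, or 22.7% (9.67% of all), 9 in E76Q, or 40.9% (22.4% of all), 11 in E113K, or 50% (20.7% of all), and 7 in E113Q, or 31.8% (12.7% of all). In E71K 0 rose (3 were lower and 2 higher at an unadjusted p under 0.05), in E113Q 2 rose (17.9% of all), and 1 rose in each of the 4 others (20.7% to 30.3% of all). The list's median log2 fold change was -0.31 in E113K and in E76Q, where that of all tested genes was 0.13 and 0.02. Slbp, which encodes the stem-loop binding protein, was at 87.7, 77.5 and 86.3 TPM in WT, at 31.7 to 40.9 in E71Q and at 40.3 to 41.9 in E113K. It fell in all 6 mutants, with log2 fold changes of -1.15 ± 0.15 in E71Q (limma adjusted p = 8.93e-06), -1.0 ± 0.15 in E113K (3.35e-05) and -0.41 to -0.61 in the others (0.0411 or less). Npat, the coactivator of histone gene transcription, had group means of 6.44 to 8.73 TPM and did not pass in any comparison. Casp8ap2, whose protein binds NPAT at histone genes, was at 15.1 ± 1.10 TPM in WT and 9.12 ± 1.02 in E113K and fell there (-0.67 ± 0.16, 0.00182). It also fell in E71Q (-0.52), E76Q (-0.45) and E113Q (-0.47). Cstf2, a cleavage factor subunit, fell in all 6 mutants, most in E113K (39.4 ± 2.13 to 15.9 ± 0.950 TPM, -1.26 ± 0.14, 1.78e-06). Eri1, the exonuclease that trims and degrades histone mRNA ends, was at 25.1 ± 2.01 TPM in WT and 9.63 ± 0.804 in E113K (-1.30 ± 0.18, 1.44e-05). Ccne2, encoding cyclin E2, was at 15.5 ± 0.510 and 4.30 ± 0.371 in these groups (-1.64 ± 0.20, 4.91e-06).

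Nearly all S phase genes fell in E71Q, E76Q and E113K, and fewer in the 3 other mutants. Of 25 S phase genes, 24 (96%) fell in E71Q, in E76Q and in E113K, where 23.5%, 22.4% and 20.7% of all tested genes fell. In E113Q 12 (48%) fell beside 12.7% of all, in E76K 6 (24%) beside 9.67% of all, and in E71K 4 (16%) beside 14.2% of all, and 0 rose in any mutant by limma, also at an unadjusted p under 0.05. The median log2 fold change of the list was -1.86 in E113K, -1.31 in E71Q and -1.30 in E76Q. Their summed level was 1819 to 2051 TPM in WT, 587 to 628 in E113K, 807 to 979.8 in E71Q and 859 to 894 in E76Q, with no overlap with WT. Pcna, the DNA polymerase clamp, was at 506 ± 42.9 TPM in WT and 202 ± 10.6 in E113K and fell in all 6 mutants (log2 -0.69 to -1.32). Mcm5, a helicase subunit, fell from 82.7 ± 6.48 to 13.9 ± 1.16 in E113K (-2.49 ± 0.34, limma adjusted p = 1.36e-05). Uhrf1, which maintains DNA methylation at replication, fell from 87.1 ± 2.33 to 16 ± 1.12 there (-2.38 ± 0.30, 5.85e-06). The proliferation marker Mki67 had means of 40.7 TPM in WT, 47.7 in E71K, 15.9 in E71Q, 39.5 in E76K, 22.3 in E76Q, 9.28 in E113K and 35.9 in E113Q, and fell in E71Q (0.00681) and E113K (0.000182).

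Single libraries of the groups that hold one set apart are set beside this sum, as a description with no test. The S phase sum was 1968, 1389 and 1021 TPM in the E71K libraries, in which Hist1h2ao was at 739, 575 and 497 and Hist1h1c at 32.6, 28.3 and 100.1. Mir6236 took 30.6% of the TPM of E71K replicate 2, which lowers its other values. Without Mir6236, Hist1h2ao was at 769, 829 and 509 in the E71K libraries. In E76K the S phase sum was 1529.8, 1526 and 971, with Hist1h2ao at 561, 553 and 344 and Hist1h1c at 49.6, 53.2 and 71.4. In E113Q it was 1545, 1500.0 and 811, with Hist1h2ao at 679, 549 and 359 and Hist1h1c at 50.5, 51.8 and 169. In each of these 3 groups replicate 3, set apart above, had the lowest S phase sum, the lowest Hist1h2ao and the highest Hist1h1c. These libraries were set apart with earlier results of these data known. A low S phase sum may have been part of that choice, so its presence here is no separate result. E71Q replicate 1, the other library set apart, did not show this order. It had the lowest S phase sum of its group (807 against 880 and 979.8) but also the lowest Hist1h1c (71.7 against 238 and 236), and its Hist1h2ao, at 241, lay between those of its mates (238 and 289). Hist1h3a was at 0 to 2.11 TPM in the 9 libraries of E71K, E76K and E113Q, too low to compare them. Hist2h2be was at 108, 73.1 and 60.4 in E71K and 129, 126 and 99.7 in E76K, lowest in replicate 3 like Hist1h2ao. In E113Q it was at 107, 99.1 and 154, highest in replicate 3. The part of S phase cells in these differences was not tested.

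**Figure D4:**
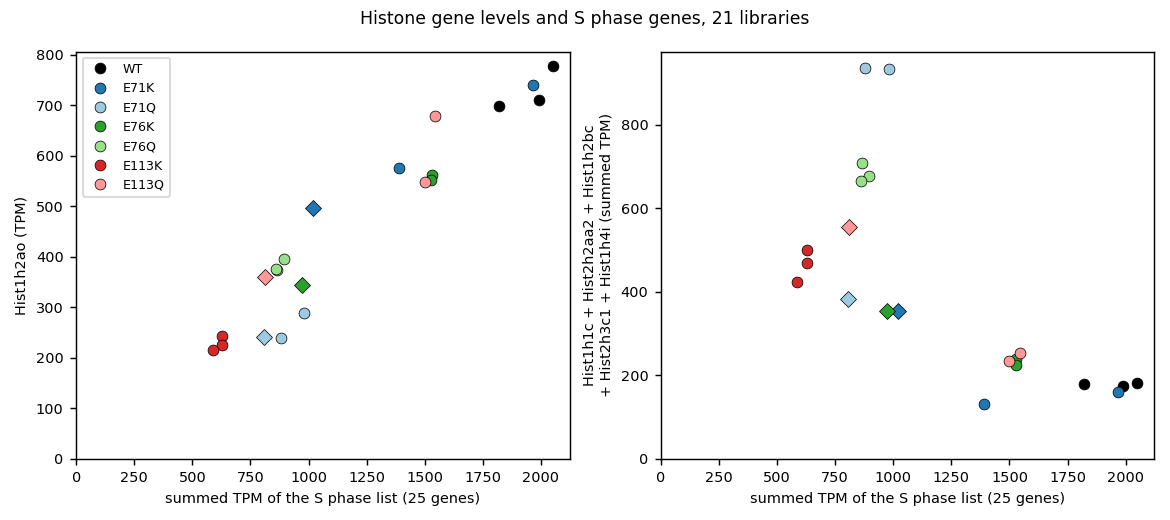
TPM of Hist1h2ao (left, y axis) and the summed TPM of Hist1h1c, Hist2h2aa2, Hist1h2bc, Hist2h3c1 and Hist1h4i (right, y axis) against the summed TPM of 25 S phase genes (x axis) in 21 libraries, coloured by H2B group, with diamonds for the 4 libraries set apart. The 5 genes were chosen after their values were seen. Hist1h2ao is at 215 to 242 TPM and the sum of 5 genes at 424 to 501 in E113K, against 699 to 778 and 175 to 181 in WT.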

How the data were processed

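Values are TPM per gene in the deposited table of 24091 genes and 21 libraries, each mapped to its genotype by its column name. Per the submitters' processing notes, Salmon, featureCounts 1.4.4, DESeq and mm10 were used, and which of these made the TPM is not given in the sources used here. TPM holds no read counts, so no count model was used. The depth is unknown. Per the labels' protocols, RNA came from the RNeasy Mini Kit and libraries from NEBNext Ultra II. Strand and RNA selection are not given in the sources used here.

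The 12192 genes averaging 1 TPM or more were tested on log2(TPM + 1) with limma 3.58.1 (R 4.3.3), all 7 groups in 1 fit, moderated variances with an intensity trend, 14 residual degrees of freedom and Benjamini-Hochberg adjustment within each comparison. An adjusted p below 0.05 is a call. Log2 fold changes understate the change of low genes. The procedure was tested on simulated data. The comparisons were each mutant against WT, lysine against glutamine at each residue, and the difference of the latter between residues. P-values set a difference against the spread of libraries within groups, pooled for each gene over all 7 groups and moderated. They do not use the spread of the compared groups alone, and the groups differ in spread.

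The members and gene lists, and the 4 libraries set apart, were chosen with earlier results of these data known. Genes named are the 4 with the highest mean TPM in each class, the 3 largest called rises and falls in each mutant, and the 2 largest called differences in each direction between lysine and glutamine. Of the histone regulators, Npat, Slbp, Casp8ap2 and the 3 others with the largest called change (Ccne2 among them) are named, of S phase genes Pcna and 2 others, and Mki67. Other genes named were chosen after their values were seen, as were the 12 genes plotted by library. Copies were grouped by identical translated coding sequence in GENCODE M21, in place of a planned protein table, which was not used here. Coordinates and promoters are from RefSeq GRCm38.p6. Alternatives were another pseudocount, other filters, median-ratio rescaling on 8056 genes, leaving out Mir6236, no variance trend, the replicate number as a block, fits of 6 libraries, and leaving out libraries. Tables and figures were made with Python 3.11.15, pandas 2.3.3, Biopython 1.88 and matplotlib 3.10.9.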

Additional observations from a re-analysis of the deposited data

Results flagged for a closer look

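Of 54 tested histone genes, 25 had a lysine-minus-glutamine difference, on the log2 scale of TPM + 1, that differed between at least 1 pair of residues by limma's interaction test with adjustment over all tested genes. The share of all tested genes called in at least 1 term was not taken, so this count is no result about the members. By term, 6.3% of all were more positive and 15.4% more negative (E71 minus E76), 16.1% and 16.6% (E71 minus E113), and 19.8% and 9.65% (E76 minus E113). Those given here are 7 of the 8 genes with the largest called differences between lysine and glutamine (2 in each direction at each residue, where called). Hist2h2be, an H2B gene, differed between each pair of residues: by -1.53 ± 0.27 between E71 and E76 (SE, adjusted p = 0.000536), by 1.44 ± 0.27 between E71 and E113 (0.000787) and by 2.97 ± 0.27 between E76 and E113 (4.35e-07). Its lysine libraries were above its glutamine libraries at E76 and below them at E113, without overlap.

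Hist2h2aa2, an H2A gene, differed by -3.83 ± 0.84 between E71 and E113 (adjusted p = 0.00231) and by -2.89 ± 0.84 between E76 and E113 (0.0155). Hist1h1c, the main H1 gene, differed by -2.57 ± 0.69 (0.00839) and -2.27 ± 0.69 (0.0186) in the same terms. In E71K, E76K and E113Q both genes were highest in the library set apart, replicate 3 of each.

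Hist1h2bk, an H2B gene, differed by 2.60 ± 0.67 between E71 and E113 (adjusted p = 0.00703) and by 2.49 ± 0.67 between E76 and E113 (0.00986). Hist4h4, an H4 gene, differed by 2.59 ± 0.63 between E71 and E76 (0.00641) and by 3.84 ± 0.63 between E71 and E113 (0.000239). Hist1h4n, another H4 gene, differed by 3.11 ± 0.96 between E71 and E113 (0.0194). Hist1h2an, an H2A gene, differed by 3.63 ± 0.83 between E71 and E76 (0.00424) and by 3.66 ± 0.83 between E71 and E113 (0.00297). It was listed at 0 in all E71Q, E76K and E113K libraries, so the size of its terms depends on the pseudocount.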

How the results depend on the processing

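Counts of members risen or fallen moved by over 1.5 times as follows, and the cause was not tested. Shares of all tested genes were not taken for these settings, so a change in calls over all genes cannot be told from one in the members. Without the 4 libraries set apart, 12 rose and 6 fell in E71K, 11 fell in E71Q, 4 rose in E76K and 10 rose in E113Q, and 18 were higher in E71K than E71Q, 4 in E76K than E76Q and 5 in E113K than E113Q, where 23 were lower. With a mean of at least 5 TPM, which left 24 members, 1 rose in E71K, 3 fell in E71Q, 4 in E76K, 3 in E76Q and 6 in E113K, 2 were higher in E71K than E71Q and 5 lower in E113K than E113Q. With a pseudocount of 0.1, 2 rose in E71K and 5 fell in E76K. With no filter, 1 rose in E76K and 5 were higher in E71K than E71Q. With only the 6 libraries compared, 4 rose in E76K, 9 fell in E76Q, and 3 were higher and 0 lower in E71K than E71Q by limma (12 and 8 at an unadjusted p under 0.05).

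Replicate numbers paired the libraries only in part. Of 63 same-numbered pairs 13 correlated above 0.1 (r from -0.17 to 0.42 over all pairs). In 0 of the 9 comparisons of 2 groups did all 3 pairs. All 13 were among E71K, E71Q, E76K and E113Q. In every pairing of these groups replicates 1 and 3 correlated above 0.1 (0.12 to 0.42). No pair with WT, E76Q or E113K did. In E71K with E76K, which were not compared directly, all 3 pairs did (0.17, 0.21 and 0.42). What these replicates share was not tested. With the replicate number as a block, 7 members rose in E113Q, no other count moved by over 1.5 times, and Hist1h2ao was called lower in E113Q (-0.51, limma adjusted p = 0.049).

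With each library left out in turn, risen and fallen counts ranged from 2 to 7 and 3 to 3 in E71K, 9 to 11 and 5 to 7 in E71Q, 1 to 1 and 5 to 9 in E76K, 8 to 11 and 4 to 5 in E76Q, 6 to 7 and 9 to 11 in E113K, and 1 to 3 and 2 to 3 in E113Q. Higher and lower counts ranged from 4 to 18 and 5 to 10 in E71K against E71Q, 1 to 2 and 4 to 7 in E76K against E76Q, and 0 to 3 and 7 to 14 in E113K against E113Q. Of 95 named calls, 66 were kept in every such fit. Among named genes, 14 calls were lost and 15 gained with only the 6 libraries compared, 10 lost with a pseudocount of 0.1, 8 lost with no filter, and 1 lost and 36 gained in the same direction without the 4 libraries set apart.

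The log2 ratio of the summed TPM of all members to WT was -0.38 in E71K (-0.44 to -0.31 with 1 library left out), -0.15 in E71Q (-0.30 to 0.08), -0.58 in E76K (-0.62 to -0.52), -0.12 in E76Q (-0.14 to -0.09), -0.74 in E113K (-0.78 to -0.71) and -0.27 in E113Q (-0.32 to -0.20). It was -0.23 in E71K and -0.020 in E76Q without Mir6236, and -0.75 in E76K and -0.88 in E113K after median-ratio rescaling. Without Hist1h2ao, the member with the highest mean, it was 0.42 in E71Q, 0.30 in E76Q, -0.29 in E113K and -0.13 in E113Q. With Hist1h3a and Hist1h3h left out as well, the sum was 513 ± 22.7 TPM in WT. In the mutants that sum was higher, from 622 ± 39.3 (E76K) to 1245 ± 435 (E71Q). Leaving out the highest gene of a class turned the sign of the H2A sum in E71Q (0.86), E76Q (1.11), E113K (0.90) and E113Q (0.52), of the H1 sum in E76K (-0.36) and E113K (-1.40), and of the H4 sum in E76Q (-0.087) and E113Q (-0.023). Without the 4 libraries set apart, Hist1h1c (-0.40) and Hist1h4h (0.87) turned in E71K. The unknown depth limits all statements on members of a few TPM.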
